A study of Brachypodium distachyon with 6 samples.

Results

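The genes described here are 5 genes of ethylene synthesis in the roots of the grass *B. distachyon*, the ACC synthase gene Bradi2g05790 and the ACC oxidase group Bradi2g41840, Bradi4g31820, Bradi4g23500 and Bradi2g40530. They were picked by identifier, as 5 of the 19538 genes in the table, and they were selected on their pruned against intact values. Their own differences between the treatments are therefore given as a description, with no test. All 5 had lower values in roots of pruned plants, and Bradi2g41840 stood far apart from the other 4 in size, with 44.7 RPM (reads per 1000000 counted reads) in intact and 6.98 RPM in pruned roots.

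The study asked how roots respond when the shoot is cut. Plants of the inbred line Bd21 were raised in boxes of agar medium with sucrose, and at 2 weeks of age some seedlings of each box were cut to a stub (pruned) while their box mates were left whole (intact). Root RNA was collected 2 days later and sequenced as 3 intact and 3 pruned libraries, which the study calls biological replicates. Only this time point was sequenced, and neither ethylene nor ACC was measured in these data. Boxes were shared between the treatments, but the labels do not tie a library to a box. The libraries held 17278649 to 28420464 reads on the listed genes, and pruned replicates 2 and 3, the deepest, were built from the first read of each pair only. In a whole root, fewer cells of a type and less RNA per cell cannot be told apart. The table pairs its identifiers with no gene names, so the root label was not checked against marker genes.

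Ethylene is a gaseous plant hormone made from S-adenosylmethionine in a pair of steps. ACC synthase first converts S-adenosylmethionine to ACC (1-aminocyclopropane-1-carboxylate) and releases methylthioadenosine, which plants recycle to methionine. ACC oxidase, an enzyme that needs oxygen, iron and ascorbate, then turns ACC into ethylene. ACC synthase is often the limiting step, and in many tissues ACC oxidase becomes limiting when ethylene is made in quantity. In roots ethylene is known for restraining elongation and for promoting root hairs.

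The gene names come from lists in which the study set identifiers beside gene records, and in those lists the columns stand out of line. They were brought back into line by chromosome and position within each list, and no independent match to the identifiers was at hand. As printed, the study's tables set an ACC oxidase or ACC synthase name beside Bradi4g38780, Bradi1g51720, Bradi3g04981, Bradi1g38687 and Bradi4g01200. After the pairing used here, each of these has another product name. By this pairing Bradi2g05790 is LOC100823860, ACC synthase 7. Bradi2g41840 is LOC100839084 and Bradi4g31820 is LOC100838946, both ACC oxidase 1-like, and Bradi4g23500 is LOC100827208, ACC oxidase. Bradi2g40530 is LOC100842226, ACC oxidase homolog 1-like. The last name goes against calling all 4 genes ACC oxidases, since ACC oxidase homologs are relatives in the 2-oxoglutarate dioxygenase superfamily whose name does not establish that they make ethylene. The group therefore holds 3 genes named as ACC oxidases and 1 homolog. By their identifiers, 3 of the 5 genes lie on chromosome 2 and the other 2 on chromosome 4.

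The ACC synthase gene Bradi2g05790, which encodes the enzyme of the first step, measured 118.4, 111.1 and 118.5 RPM in intact replicates 1, 2 and 3. In pruned replicates 1, 2 and 3 it measured 69.9, 69.9 and 66.6 RPM. The groups did not overlap, and within each group the replicates lay close together, with a coefficient of variation of 3.64% in intact and 2.77% in pruned roots. The mean was 116.0 ± 4.22 RPM (SD, n = 3) in intact and 68.8 ± 1.90 RPM (SD, n = 3) in pruned roots, a level 40.7% lower. Over the 9 ways to set an intact beside a pruned library, the intact value was 1.59 to 1.78 times the pruned value. The fitted log2 fold change, pruned over intact on the log2(RPM + 0.5) scale, was -0.75 ± 0.05 (SE). The gene had 1208 to 2521 reads in each library, so counting alone would give a coefficient of variation of about 2.11% in intact and 2.46% in pruned roots.

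**Figure D1:**
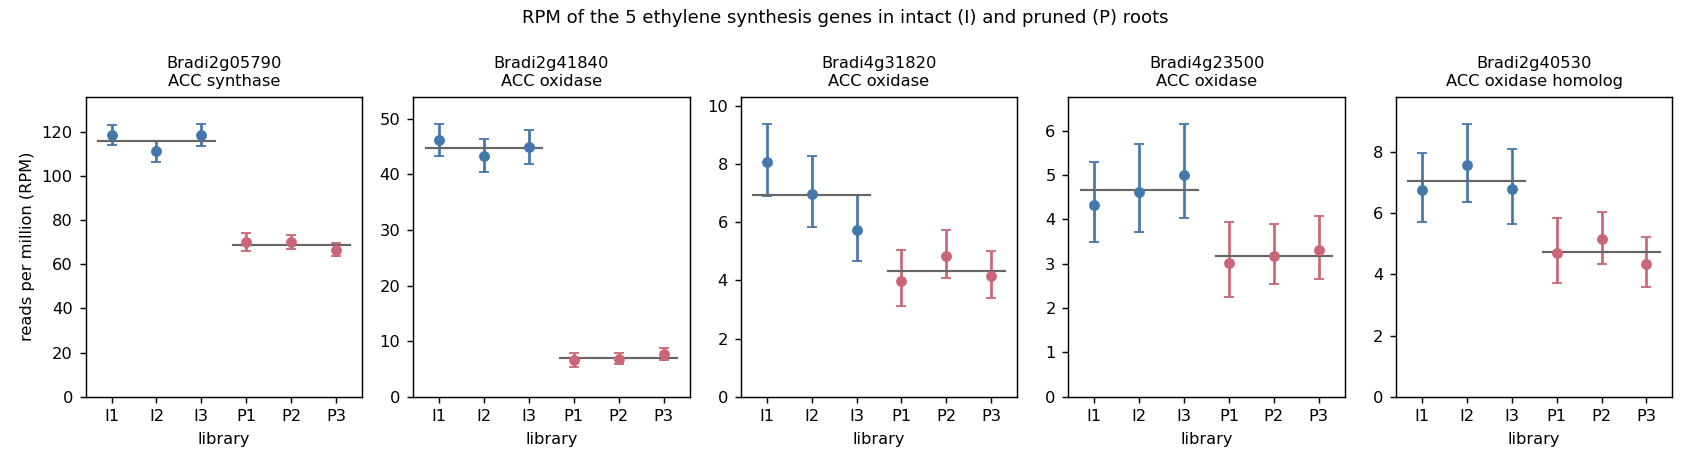
RPM of the 5 genes in each library, with intact replicates (I, blue) and pruned replicates (P, red) on the x axis and an own y axis from 0 for each gene. Error bars are exact 95% Poisson intervals, which cover counting error only, and grey lines are group means. For each gene the 3 pruned points lie below the 3 intact points, and for Bradi2g41840 the means are 44.7 and 6.98 RPM.

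Bradi2g41840, an ACC oxidase gene for the step from ACC to ethylene, showed the widest gap of the 5. It measured 46.1, 43.3 and 44.8 RPM in intact replicates 1, 2 and 3, against 6.54, 6.79 and 7.62 RPM in pruned replicates 1, 2 and 3. Every pruned library was far below every intact one, by a factor of 5.68 to 7.04 over the 9 pairs. The mean of 44.7 ± 1.41 RPM (SD, n = 3) in intact roots was 6.41 times the mean of 6.98 ± 0.56 RPM (SD, n = 3) in pruned roots, a level 84.4% lower. The fitted log2 fold change was -2.60 ± 0.08 (SE), and counted from the lowest value it stood at rank 8 among the 19538 genes. The pruned libraries rested on 113, 193 and 202 reads for this gene, the intact ones on 813 to 981. Relative to counting error, the spread was near what reads alone would give, 3.14% against 3.39% in intact and 8.07% against 7.68% in pruned roots.

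The remaining ACC oxidase genes had low read numbers and smaller gaps. Bradi4g31820 measured 8.08, 6.97 and 5.73 RPM in intact replicates 1, 2 and 3, and 3.99, 4.86 and 4.15 RPM in pruned replicates 1, 2 and 3. It was the most variable of the 5 genes among intact libraries, with a coefficient of variation of 16.96% where counting gives 8.59%. The groups did not overlap, but the nearest pair of libraries, intact replicate 3 and pruned replicate 2, differed by only 1.18-fold, and the farthest by 2.02-fold. Their exact 95% Poisson intervals, 4.68 to 6.94 RPM and 4.08 to 5.74 RPM, overlapped. The means were 6.93 ± 1.17 RPM and 4.33 ± 0.46 RPM (SD, n = 3 each), and the fitted log2 fold change was -0.61 ± 0.13 (SE).

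Bradi4g23500 measured 4.32, 4.63 and 5.01 RPM in intact replicates 1, 2 and 3. In the pruned replicates it measured 3.01, 3.17 and 3.32 RPM. The groups lay side by side without overlap, but this was the gene with the fewest reads, 52 to 92 in a library, and the intervals of the nearest libraries overlapped, 3.48 to 5.30 RPM in intact replicate 1 and 2.66 to 4.09 RPM in pruned replicate 3. The mean of 4.65 ± 0.35 RPM in intact roots was 1.47 times that of 3.16 ± 0.15 RPM in pruned roots (SD, n = 3 each), with a fitted log2 fold change of -0.49 ± 0.13 (SE). The spread of the replicates, 7.46% in intact and 4.88% in pruned roots, was below the 10.5% and 11.4% expected from counting.

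The homolog Bradi2g40530 measured 6.76, 7.56 and 6.78 RPM in intact replicates 1, 2 and 3. In the pruned replicates it measured 4.69, 5.14 and 4.34 RPM. Pruned replicate 2 came nearest to the intact libraries and still lay 1.32-fold below the lowest of them, and its interval of 4.34 to 6.04 RPM overlapped the 5.70 to 7.96 RPM of intact replicate 1. The mean was 7.03 ± 0.45 RPM in intact and 4.72 ± 0.40 RPM in pruned roots (SD, n = 3 each), 1.49 times higher in intact roots, with a fitted log2 fold change of -0.53 ± 0.11 (SE).

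All 5 genes thus had every pruned library below every intact one, an arrangement that 22.7% of all 19538 genes shared. Of the 5, Bradi2g41840, Bradi2g05790 and Bradi4g31820 were lower by at least 1.5-fold, the limit in the study's methods, as were 4.78% of all genes. Only Bradi2g41840 was lower by at least 2-fold, the limit the study names for its gene lists, as were 1.72% of all genes. Bradi2g40530 and Bradi4g23500 were just short of 1.5-fold. The limit lies within the error of these low genes. All 5 lay past it when edgeR or DESeq2 was run on the recovered reads, while Bradi4g31820 was short of it, at -0.50 without intact replicate 1 and at -0.56 without pruned replicate 1, and Bradi2g40530 was past it, at -0.59, without pruned replicate 2. Because the genes were chosen with these values known, the counts are not support for a direction of the group. The median log2 fold change was -0.61 over the 5 genes and 0.04 over all genes.

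**Figure D2:**
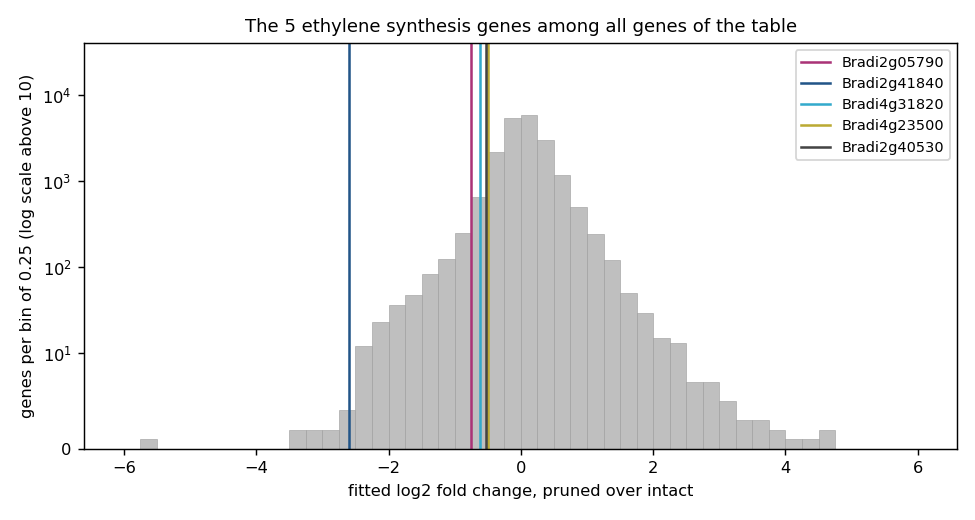
Distribution of the fitted log2 fold change, pruned over intact, over 19538 genes in bins of 0.25 (x axis), with the number of genes on a y axis that is logarithmic above 10. Coloured lines mark the 5 genes, of which Bradi2g41840 at -2.60 lies in the far left tail and the other 4 lie between -0.75 and -0.49.

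The RPM of the 4 genes were also summed to a pool for the second step. This sum counts reads, not transcripts, since longer transcripts give more reads and no transcript lengths were used. It was 65.2, 62.4 and 62.4 RPM in intact replicates 1, 2 and 3 and 18.2, 19.95 and 19.4 RPM in pruned replicates 1, 2 and 3. The libraries of each group lay close together and the groups were far apart, with means of 63.3 ± 1.64 and 19.2 ± 0.88 RPM (SD, n = 3 each), a ratio of 3.30 and 3.13 to 3.58 over the pairs of libraries. Without the homolog, the pool of 3 genes had means of 56.3 ± 1.91 and 14.5 ± 0.82 RPM (SD, n = 3 each), a ratio of 3.89.

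Most of the gap in the pool came from a single gene. Bradi2g41840 accounted for 85.5% of the difference of 44.1 RPM between the group means, Bradi4g31820 for 5.88%, Bradi2g40530 for 5.24% and Bradi4g23500 for 3.38%. Without Bradi2g41840, the pool was 18.6 ± 0.95 RPM in intact and 12.2 ± 0.82 RPM in pruned roots (SD, n = 3 each), a ratio of 1.52. The composition of the pool also differed. Bradi2g41840 gave 69.3% to 71.9% of the pooled reads in intact libraries and 34.0% to 39.2% in pruned libraries. The other 3 genes took the rest, with mean shares of 10.9% in intact and 22.5% in pruned libraries for Bradi4g31820, 7.36% and 16.5% for Bradi4g23500, and 11.1% and 24.6% for Bradi2g40530.

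**Figure D3:**
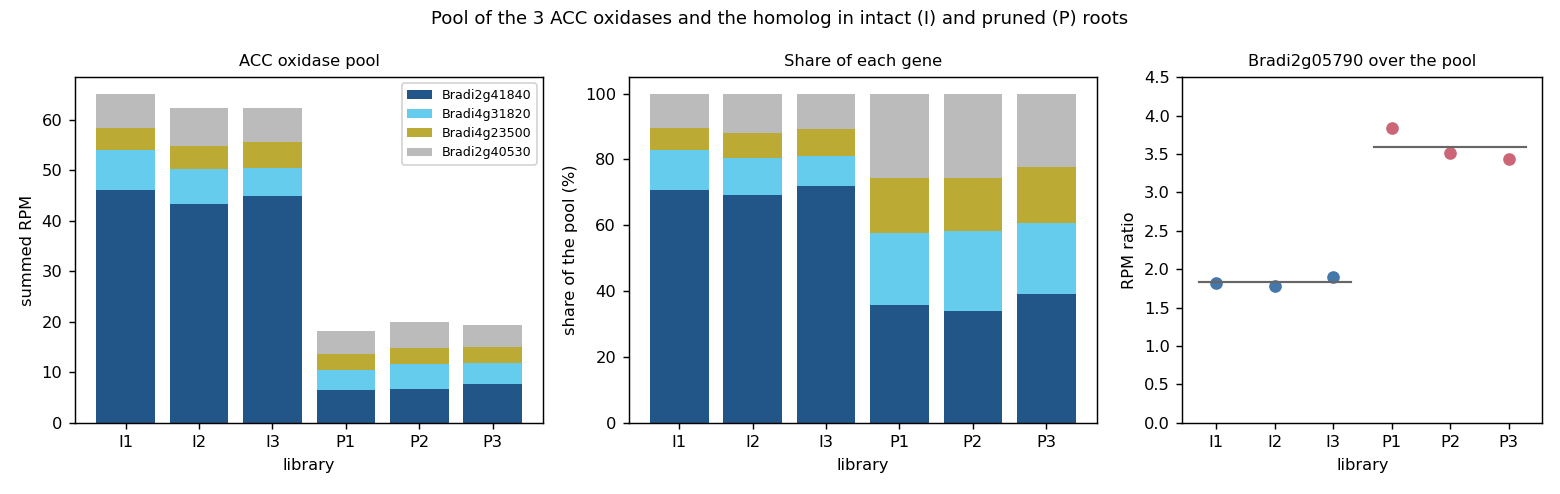
Left, summed RPM of the 4 genes in each library (stacked bars from 0); middle, the share of each gene in that sum in percent; right, RPM of Bradi2g05790 divided by the sum, with grey lines at the group means. In pruned libraries (P) the sum is 18.2 to 19.95 RPM and Bradi2g41840 takes 34.0% to 39.2% of it, against 62.4 to 65.2 RPM and 69.3% to 71.9% in intact libraries (I).

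The synthase and the oxidase pool stood in a different proportion in the groups. The RPM of the synthase gene Bradi2g05790 were 1.81, 1.78 and 1.90 times the pool in intact replicates 1, 2 and 3, and 3.83, 3.51 and 3.43 times the pool in pruned replicates 1, 2 and 3. The ratio was 1.96 times higher in pruned roots, and the groups did not overlap. Over the pool of 3 genes without the homolog it was 2.31 times higher. Both the ratio and its difference between groups depend on how the genes of the pool are weighted, and no weighting by transcript length was run.

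As pruned replicates 2 and 3 were built from first reads only, pruned replicate 1, the sole pruned library handled like the intact ones, was also read alone. It lay below all 3 intact libraries for each of the 5 genes. Bradi2g41840 was 6.84-fold lower there than the intact mean, Bradi2g05790 1.66-fold, Bradi4g31820 1.74-fold, Bradi4g23500 1.55-fold and Bradi2g40530 1.5-fold. The 5 gaps were thus as large or nearly as large without the libraries of first reads.

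The log2(RPM + 0.5) values of the 5 genes followed each other over the 6 libraries, which fall into the 2 treatment groups and therefore make any pair of genes with a treatment gap look alike. Pearson's r, a description here, was 0.99 between Bradi2g05790 and Bradi2g41840 and 0.97 between Bradi4g23500 and Bradi2g41840, and lowest, 0.78, between Bradi4g23500 and Bradi4g31820. Likeness of this degree was common. Among genes with a mean of at least 5 RPM, 1525 of 14858 reached an r of 0.95 with Bradi2g05790, 1496 with Bradi2g41840 and 680 with Bradi2g40530. Against Bradi4g23500 the number was 1049 of 14859, and against Bradi4g31820, whose intact libraries were spread widest, 100 of 14858. The genes most like Bradi2g41840 were Bradi3g06930, Bradi1g23620 and Bradi5g18780, with r of 1.00, and those most like Bradi2g05790 were Bradi2g50410, Bradi3g17120 and Bradi1g56540, also with r of 1.00. For Bradi4g23500 they were Bradi1g13650, Bradi2g21110 and Bradi2g22170, for Bradi4g31820 Bradi2g46700, Bradi2g20320 and Bradi3g47910, and for Bradi2g40530 Bradi4g03470, Bradi2g13450 and Bradi2g18550, with r of 0.99 to 1.00 over the 6 libraries. None of these 15 genes has a name in the lists used here.

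Genes beside the members on the chromosome were tested in the fit over all genes, 5 listed genes on each side by identifier. Calls were made with limma, with 0.05 as the limit on the adjusted p and 1.5 as that on the fold change, which called 4.78% of all genes lower and 8.31% higher in pruned roots. Of the 50 neighbours, 5 fell and 3 rose, and their median log2 fold change was 0.13. The nearest listed genes on either side of Bradi2g41840 were both among those that fell. Bradi2g41880 fell from 100.01 to 34.9 RPM (log2 fold change -1.51 ± 0.06, limma adjusted p = 3.5e-16), and Bradi2g41830 from 12.1 to 7.39 RPM (-0.66 ± 0.11, limma adjusted p = 3e-05). Neither has a name in the lists used here. The next listed gene beyond Bradi2g41830, Bradi2g41817, rose from 7.70 to 13.3 RPM (0.75 ± 0.09, limma adjusted p = 2.6e-07). The other neighbours of Bradi2g41840 did not meet both limits. The strand setting of the read counting is not stated, so reads of overlapping neighbours could not be told apart. No neighbour of Bradi2g40530 fell, and 2 of its 10 rose, Bradi2g40537 with a log2 fold change of 1.02 ± 0.06 and Bradi2g40560 with 0.75 ± 0.13 (limma adjusted p = 3.7e-13 and 4.1e-05).

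Around the pathway, 9 further genes were tested with limma over all genes, and 3 fell, 3 rose and 3 did not meet both limits. They come from lists of genes that the study called differentially expressed in these same libraries, or from its text on them. Neither their counts nor their p-values are therefore independent evidence. Over all genes, 4.78% were called lower and 8.31% higher. On the supply side, Bradi1g51720, paired with a methylthioadenosine nucleosidase that opens the recycling of methylthioadenosine, measured 135.2, 134.5 and 145.5 RPM in intact and 80.9, 88.4 and 85.8 RPM in pruned replicates. It fell without overlap, with a log2 fold change of -0.70 ± 0.05 (limma adjusted p = 3.6e-11), a size near that of the synthase gene. Bradi1g38687 was paired with spermine synthase, an enzyme of polyamine synthesis that uses S-adenosylmethionine only in its decarboxylated form. The gene rose from 105.8 ± 2.48 to 242.7 ± 3.75 RPM (SD, n = 3 each), with a log2 fold change of 1.19 ± 0.04 (limma adjusted p = 1.2e-16). The nucleosidase and spermine synthase genes thus moved in opposite directions. A pair of other genes of methionine and cysteine metabolism were named after their values were seen and are given without a test. Bradi4g01200, a methionine synthase, was at 811.6 ± 77.4 RPM in intact and 534.8 ± 41.6 RPM in pruned roots, and Bradi3g04981, a mitochondrial sulfurtransferase, at 93.9 ± 1.65 and 147.8 ± 5.19 RPM (SD, n = 3 each). The study reports the genes of this metabolism as raised and proposes a possible activation of ethylene production, among other processes. Bradi4g01200 and Bradi3g04981 differed in direction.

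**Figure D4:**
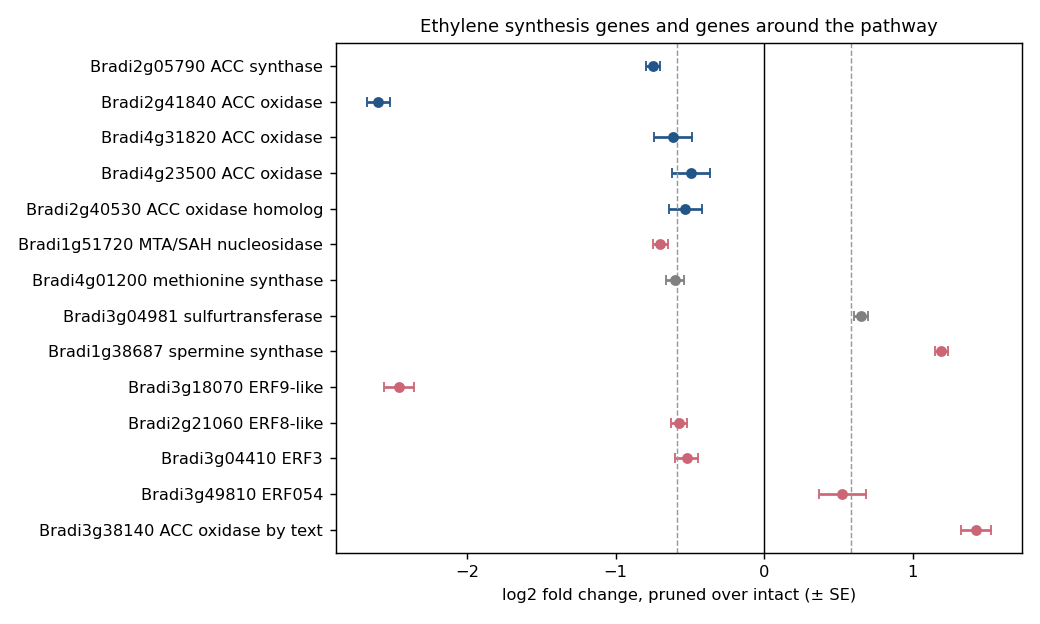
Fitted log2 fold change, pruned over intact, with SE for the 5 ethylene synthesis genes (blue, described without a test), for tested genes around the pathway (red) and for genes named after their values were seen (grey). Dashed lines mark 1.5-fold. Bradi2g41840 at -2.60 and the ERF9-like gene Bradi3g18070 at -2.46 lie farthest to the left.

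Ethylene-responsive transcription factors (ERFs) form a large family of DNA-binding proteins, only part of which answers to ethylene. Of the 4 that were paired with an identifier, all from those same lists, 1 met both limits, as a fall. Over all genes, 4.78% were called lower. Bradi3g18070, ERF9-like, measured 27.8, 26.7 and 23.1 RPM in intact and 4.40, 4.68 and 3.81 RPM in pruned replicates. It fell by 2.46 ± 0.10 on the log2 scale (limma adjusted p = 7e-16), a gap close in size to that of Bradi2g41840. Bradi2g21060, ERF8-like, with a log2 fold change of -0.57 ± 0.05, and Bradi3g04410, ERF3, with -0.52 ± 0.08, had limma adjusted p of 3.3e-09 and 6.2e-06 but stayed short of 1.5-fold. Bradi3g49810, ERF054, was higher in pruned roots at 0.53 ± 0.16 (limma adjusted p = 0.0078), also short of 1.5-fold, on 24 to 59 reads in a library. The ERF8-like gene passed 1.5-fold by edgeR and by DESeq2 on the reads, at -0.62 and -0.63, and so did ERF3, at -0.59 by both. The ERF8-like gene also passed it at -0.60 without intact replicate 2 and at -0.59 without pruned replicate 3. ERF054 passed it by edgeR, at 0.63, and with a pseudocount of 0.1, at 0.64, but its adjusted p by DESeq2 was 0.06.

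As ACC oxidase needs oxygen, genes that low oxygen raises in other plants were looked for too, but only 1 was paired with an identifier. Bradi1g65440, paired with pyruvate decarboxylase, the enzyme that opens ethanol fermentation, fell from 1495 ± 28.3 to 541.3 ± 11.04 RPM (SD, n = 3 each; log2 fold change -1.46 ± 0.04, limma adjusted p = 1.3e-18). The study calls Bradi3g13370 pyruvate decarboxylase 2, the same name that the lists give to Bradi1g65440. Bradi3g13370 has no pairing in the lists, so whether both names hold could not be checked. It rose from 2.88 ± 0.22 to 6.14 ± 0.17 RPM (SD, n = 3 each; log2 fold change 0.98 ± 0.12, limma adjusted p = 4.8e-07). The 2 genes moved in opposite directions, with far more reads on the first. The study also measured Bradi3g13370 by quantitative PCR in roots and shoots, and reports a pattern similar to its RNA sequencing.

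One more gene is called an ACC oxidase by the study but has no pairing in the lists, and it went the other way. Bradi3g38140 measured 6.20, 9.05 and 7.88 RPM in intact and 21.8, 21.5 and 20.7 RPM in pruned replicates. It rose 2.77-fold by the means, with a log2 fold change of 1.43 ± 0.10 (limma adjusted p = 4.5e-11), and an exact two-sided permutation test over the 6 libraries gave p = 0.1, the smallest p that 3 against 3 libraries allow. The study also measured Bradi3g38140 by quantitative PCR in roots and shoots, and reports a pattern similar to its RNA sequencing. The name of Bradi3g38140 has no gene record behind it here. In that same passage the study calls Bradi5g08650 an ABA receptor, whereas the lists name it protein TIFY 9. Bradi3g56330, an amino acid transporter, and Bradi5g12020, a sugar transport protein, bear matching names in the passage and the lists. For want of a gene record, Bradi3g38140 was kept out of the pool.

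In the study's grouping of genes by function, oxidases of this family stood beside other members of the 2-oxoglutarate dioxygenase superfamily, and 4 of these are given for comparison, without a test, as they were chosen after their values were seen. The deoxymugineic acid dioxygenases, which hydroxylate the iron-chelating mugineic acids of grasses, were lower in pruned roots, Bradi4g43610 at 1635 ± 44.3 and 596.3 ± 37.6 RPM and Bradi4g38780 at 20.1 ± 1.76 and 6.08 ± 0.45 RPM (SD, n = 3 each). The SRG1-like genes differed in direction. Bradi1g47820 was at 29.5 ± 1.00 RPM in intact and 102.2 ± 4.43 RPM in pruned roots, and Bradi3g04250 at 2.15 ± 0.77 and 0.51 ± 0.25 RPM (SD, n = 3 each), so lower values were not shared by all dioxygenases of that grouping.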

How the data were processed

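The deposited table holds RPM (reads per 1000000) for 19538 genes in 6 root libraries, 3 intact and 3 pruned. As the study's methods say, the authors trimmed reads with SolexaQA and cutadapt, aligned these to the phytozome v11 genome with Tophat and counted uniquely mapped reads per gene, with R1 reads only for pruned replicates 2 and 3. HTSeq and TopHat are named in the submitters' processing notes. The assembly version within that release and the strand setting are not given in the sources used here. The RPM of each library sum to 1000000, and 100% of values were whole reads within 0.01 of a read, which gave the reads, 17278649 to 28420464 in a library. Counting intervals are exact 95% Poisson intervals and cover counting error only.

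Pruned and intact libraries were tested by limma 3.58.1 under R 4.3.3 (eBayes with trend) on log2(RPM + 0.5), two-sided, with Benjamini-Hochberg adjustment over all genes, with limits of 0.05 on the adjusted p and 1.5 on the fold change, those in the study's methods. No filter was set. Scripts were checked on simulated data. Alternatives were edgeR 4.0.16 and DESeq2 1.42.0 on the recovered reads, limma without the trend, and other pseudocounts, filters, scaling and limits. A term for read layout, a replicate block and each library left out were also run. limma called 2557 genes, edgeR 2919 and DESeq2 2755.

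The 5 genes and the lists were chosen with earlier results of these data known. Besides these, the text names genes called ACC synthase or oxidase, up to 5 genes of each list by fold change, and the 3 genes most correlated with each of the 5. Identifiers were paired with gene records in 24 of 26 lists of the study, those with equal numbers of genes per chromosome, which gave names to 330 identifiers. All 285 identifiers on more than 1 list had the same record in each. S-adenosylmethionine synthases, ethylene receptors and signalling genes, and marker genes had no pairing and were not analysed here. The same holds for the alcohol dehydrogenases, hemoglobins and plant cysteine oxidases that low oxygen raises. No sequences are shown.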

Additional observations from a re-analysis of the deposited data

How the results depend on the processing

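The log2 fold changes of the 5 genes stayed negative in all alternatives run. For Bradi2g05790 the value was -0.80 with median-ratio scaling, with edgeR and with DESeq2. For Bradi2g41840 it was -2.72 with edgeR and with DESeq2, and -2.68 with read layout as a term and from paired-end libraries only, the latter chosen after seeing the data. Bradi4g31820 came to -0.56, short of 1.5-fold, with a pseudocount of 1. For Bradi4g23500 it was -0.59 with edgeR and -0.60 with DESeq2, past 1.5-fold, and the filter at 5 RPM removed the gene. With each library left out in turn, the ranges were -0.78 to -0.73 for Bradi2g05790, -2.66 to -2.56 for Bradi2g41840, -0.73 to -0.50 for Bradi4g31820 (lowest in size without intact replicate 1), -0.54 to -0.44 for Bradi4g23500 and -0.59 to -0.48 for Bradi2g40530. The log2 ratio of the pool was -1.72, ran from -1.75 to -1.69 with each library left out, and was -1.96 for the 3 genes without the homolog, an alternative chosen after seeing the data. A pool per transcript length was not run.

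Of the 9 pathway genes, 5 were lower with edgeR, with DESeq2 and with no limit on the fold change, against 3 with limma, and 3 to 4 with each library left out. The genes added were Bradi2g21060 and Bradi3g04410, which were short of 1.5-fold with limma and past it with edgeR and DESeq2. Why the fitted values differ was not tested. The number called higher was 3 with each library left out. Whether replicate numbers pair the libraries could not be settled. The correlations of deviations of intact and pruned libraries with the same number were -0.03, 0.20 and 0.08. Those of libraries with different numbers ran from -0.21 to 0.12. With the number as a replicate block, the same counts of 3 lower and 3 higher were found. Low reads, 52 to 92 in a library, limit Bradi4g23500 most. Taken over all genes, replicates differed by more than sampling noise. For Bradi2g41840 and Bradi4g23500 the spread was near or below that of counting. The limma p-values rest on 3 libraries a group, with the variance of each gene drawn towards a trend over all genes. They do not measure the spread of those libraries alone. Without the trend, the limma adjusted p was 6.8e-06 for Bradi1g38687 and 3.2e-06 for Bradi1g65440, far larger than with it.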
